A study of Mus musculus with 20 samples.

Results

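The comparison set CD4 T cells labelled Il6ra-/- that had been driven to the Th17 state with hyper-IL-6 (KO_HDS63, 2 libraries) against naive CD4 T cells of the same labelled genotype (KO_Tn, 2 libraries). These 4 libraries, taken by their source names out of 20 in the series, were described across all 14926 genes with enough reads to be tested. The KO_HDS63 cells came from spleen and lymph node T cells of C57BL/6 mice that carry, per the labels, IL6Ra-/- and a heterozygous IL-17F/Thy1.1 reporter allele. Naive cells were sorted, cultured for 6 days with irradiated antigen-presenting cells in 2.5 ng/ml TGF-beta plus 63 ng/ml hyper-IL-6, stimulated for 4 h with PMA and ionomycin, and sorted as CD4+ Thy1.1+ cells. The KO_Tn cells carry the same alleles and are labelled naive CD4+ T cells, and the labels give the 4 h PMA and ionomycin stimulation for them as well. Libraries of wild-type cells with the same reporter (WT_HDS63 and WT_Tn, 2 each, and WT_IL6, 2, cultured with IL-6 at 20 ng/ml in place of hyper-IL-6) entered the same fit and served as the comparison with the other genotype.

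IL-6 binds its receptor IL-6R alpha, encoded by Il6ra, and the pair then engages gp130, encoded by Il6st, which signals through JAK kinases to the transcription factor STAT3. Hyper-IL-6 is a fusion of IL-6 with soluble IL-6R alpha that engages gp130 directly, so a cell without its own IL-6R alpha can respond to it (trans-signalling). Together with TGF-beta, STAT3 signalling directs naive CD4 T cells to the Th17 fate, marked by secretion of IL-17A and IL-17F. The sort itself took cells with a Thy1.1 reporter placed at Il17f, so a high Il17f level in the cultured cells follows from how they were collected and is given as a description.

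Depth was 34950754 and 35859379 gene reads in the KO_HDS63 libraries and 20160774 and 26648954 in the KO_Tn libraries. Reads outside annotated genes made up 22.3% and 21.1% of uniquely aligned reads in KO_HDS63 and 31.9% and 31.5% in KO_Tn, and mitochondrial genes took 1.13% and 1.07% against 1.36% and 1.39%. Values below are CPM, a library's counts scaled to a common total of gene reads after TMM correction for composition, and a floor of 3 reads corresponds to 0.0839 and 0.0817 CPM in KO_HDS63 and to 0.155 and 0.117 CPM in KO_Tn. CPM does not correct for gene length, so levels are compared between groups and not between genes. In RNA from bulk cells, fewer cells of a type and less RNA per cell cannot be told apart. Nothing in the labels says whether the libraries of a group came from separate mice or cultures, so each p-value reflects only how far these libraries differ, which may be technical.

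The library labelled KO_HDS63 replicate 2 went against its label. Nefh (chr11:4938754-4948064), a neurofilament gene, stood at 74.9 and 2.91 CPM in the libraries labelled KO_HDS63 replicates 1 and 2, at 2.43 and 2.29 CPM in WT_HDS63 and at 2.44 and 75.7 CPM in WT_IL6 replicates 1 and 2. In naive cells it was 8.68 and 8.53 CPM in KO_Tn and 0.244 and 0.424 CPM in WT_Tn. The high cultured libraries were thus KO_HDS63 replicate 1 and WT_IL6 replicate 2, and the other 4 cultured libraries sat together. Slc35e4 (chr11:3907021-3914664), a member of a solute carrier family, was 6.43 and 14.98 CPM in KO_HDS63, 15.6 and 14.6 CPM in WT_HDS63 and 13.99 and 5.57 CPM in WT_IL6, with 0.517 and 0.156 CPM in KO_Tn and 5.96 and 7.33 CPM in WT_Tn. Tcn2 (chr11:3917192-3932159), which encodes the vitamin B12 carrier transcobalamin, was 1.37 and 5.94 CPM in KO_HDS63, 5.86 and 5.24 CPM in WT_HDS63 and 5.09 and 1.13 CPM in WT_IL6, with 11.00 and 10.5 CPM in KO_Tn and 34.9 and 35.9 CPM in WT_Tn. Of both genes the naive cells labelled Il6ra-/- held less than the wild-type ones, as did KO_HDS63 replicate 1 and WT_IL6 replicate 2 among the cultured libraries. These 3 genes, near each other on chromosome 11, were chosen after their values were seen.

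Across all genes with a mean of at least 2 CPM, the number in which a pair of cultured libraries stood apart from the other 4 by at least 0.5 on the log2 scale was 0 for the 2 KO_HDS63 libraries, 25 for KO_HDS63 replicate 1 with WT_IL6 replicate 2, 29 for KO_HDS63 replicate 2 with WT_IL6 replicate 1, 4 for the WT_HDS63 pair and 0 for the WT_IL6 pair. That gap was set after the data were seen. Other pairs of cultured libraries were not counted, so these numbers have no wider reference. Whether libraries were exchanged was not tested, and all libraries were analysed under their deposited labels. Il6ra itself read 32.3 and 31.8 CPM in KO_HDS63 and 39.8 and 39.2 CPM in WT_HDS63, against 199 and 213 CPM in KO_Tn and 270.2 and 421 CPM in WT_Tn. Which exons were deleted is not stated in the labels, so its reads check no label. Counts of genes that lead a result were therefore repeated without KO_HDS63 replicate 2, and where a list's count differed without it the second count is given beside the first. Per-library values are in the order of replicates 1 and 2 throughout.

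**Figure D1:**
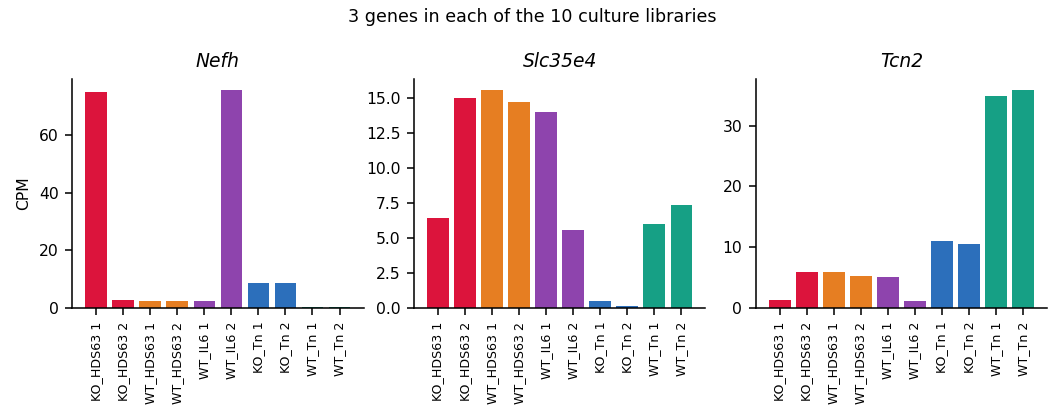
CPM (vertical axes, from 0) of Nefh, Slc35e4 and Tcn2 in each of the 10 culture libraries (horizontal axes, 1 bar per library, coloured by group). The bars of KO_HDS63 replicate 1 and WT_IL6 replicate 2 match each other and differ from the other 4 cultured libraries in all 3 genes.

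Most of the transcriptome differed between the cultured and the naive cells. With edgeR's quasi-likelihood test and Benjamini-Hochberg adjustment over all genes, 5604 genes were higher in KO_HDS63 (37.5% of those tested) and 5136 were lower (34.4%), 72% in all at an adjusted p under 0.05. Of these, 3701 rose and 3513 fell more than 2-fold, 2022 rose and 2070 fell more than 4-fold, and 1029 rose and 778 fell more than 16-fold. The groups did not overlap in 12920 genes (86.6%), and the median log2 fold change over all genes was 0.04. Among the genes that rose, 407 had no read in either KO_Tn library, and among those that fell, 212 had no read in either KO_HDS63 library. With so many calls, a count of called genes in any list has to be read against 37.5% higher and 34.4% lower.

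Protein-coding genes moved up more often than down (5175 higher and 4307 lower of 12457), whereas long non-coding RNAs moved down more often (52 higher and 130 lower of 315 lincRNAs, 97 higher and 189 lower of 555 antisense genes). Whether the counting used strand is not known here, so reads of an antisense gene and its partner may be mixed. Without KO_HDS63 replicate 2, 5209 genes were higher and 4406 lower, and 9416 of the 10740 calls remained in the same direction.

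**Figure D2:**
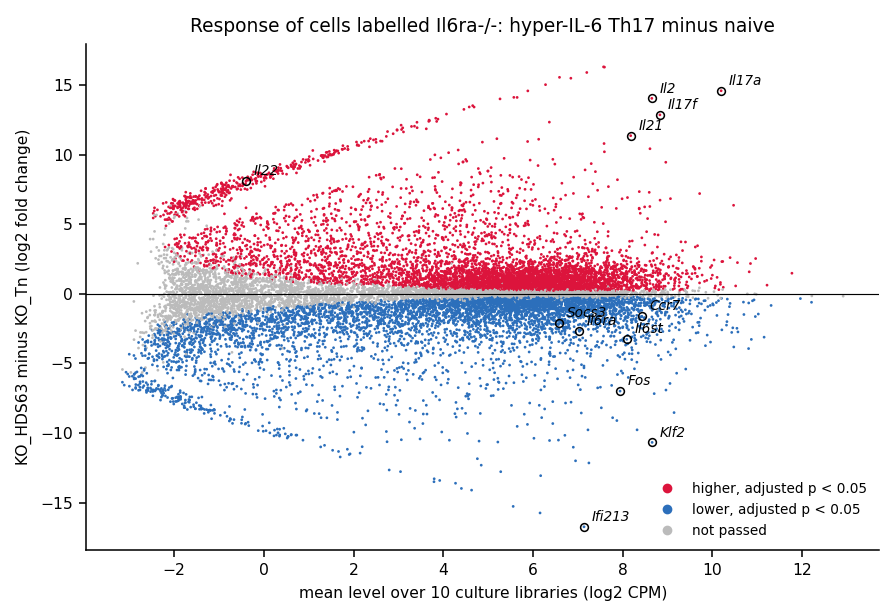
Log2 fold change of KO_HDS63 minus KO_Tn (vertical axis) against the mean log2 CPM over the 10 culture libraries (horizontal axis), 1 point per tested gene, red for higher and blue for lower at an adjusted p under 0.05. Of 14926 genes, 5604 are red and 5136 blue. The outer bands are genes with no or few reads in a group, where the fitted value depends on the model and is no bound.

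Genes of the Th17 programme were higher in the cultured cells. Of 17 genes of the programme, all tested, 16 rose and none fell, with a median log2 fold change of 6.55 (6.00 with the 3 genes that had no read in KO_Tn set to their bound). Il17a (chr1:20730905-20734496) read 1714 and 2815 CPM in KO_HDS63 and 0 and 0.156 CPM in KO_Tn, a log2 fold change of 14.58, SE 0.50 with an adjusted p of 5.04e-09. Il17f (chr1:20777146-20790617), the reporter locus, read 632 and 1064 CPM in KO_HDS63 and 0.103 and 0.117 CPM in KO_Tn. In both genes the 2 cultured libraries were far above the naive ones, and replicate 2 was well above replicate 1. Il21, whose product feeds back on STAT3 signalling in Th17 cells, read 479 and 585 CPM in KO_HDS63 and 0.0517 and 0.313 CPM in KO_Tn (log2 fold change 11.35, SE 0.40, adjusted p 1.94e-09). Il22, whose product acts on epithelial cells, was at 0.615 and 1.498 CPM in KO_HDS63 and 0 in both KO_Tn libraries, at least 7.76-fold higher. Ccl20, the chemokine ligand of CCR6, read 259 and 363 CPM in KO_HDS63 and 0 in KO_Tn, at least 2282-fold higher.

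Transcription factor genes of the programme also rose. Rora, which encodes a nuclear receptor that promotes Th17 differentiation, read 329 and 272 CPM in KO_HDS63 and 15.2 and 18.7 CPM in KO_Tn (log2 fold change 4.14, SE 0.14, adjusted p 1.7e-09). Maf, an activator of Il10 and Il21, read 188 and 188 CPM in KO_HDS63 and 18.6 and 19.6 CPM in KO_Tn (log2 fold change 3.30, SE 0.19, adjusted p 6.7e-08). Rora and Maf were already expressed in naive cells. Irf4, a T cell activation factor needed for Th17 differentiation, read 2494 and 2076 CPM in KO_HDS63 and 37.96 and 18.3 CPM in KO_Tn (log2 fold change 6.36, SE 0.48, adjusted p 4.78e-07). Stat3, the transcription factor through which gp130 acts, did not pass the test, with 203 and 242 CPM in KO_HDS63 and 267 and 279 CPM in KO_Tn (log2 fold change -0.29, SE 0.17, adjusted p 0.137).

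Receptors that maintain Th17 cells also rose. Il1r1, the IL-1 receptor, read 138 and 156 CPM in KO_HDS63 and 0.310 and 0.0782 CPM in KO_Tn (log2 fold change 9.65, SE 0.28, adjusted p 7.69e-10). Il23r, the specific chain of the IL-23 receptor, read 14.6 and 21.4 CPM in KO_HDS63 and 0 and 0.0782 CPM in KO_Tn, where it had 2 reads in all. Ccr6, which directs Th17 cells to CCL20, read 43.8 and 21.5 CPM in KO_HDS63 and 0.258 and 0.704 CPM in KO_Tn (log2 fold change 6.00, SE 0.51, adjusted p 1.32e-06), with replicate 1 the higher. In each of the genes that rose, both cultured libraries lay above both naive ones. Without KO_HDS63 replicate 2, 16 genes of the programme likewise rose and none fell.

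**Figure D3:**
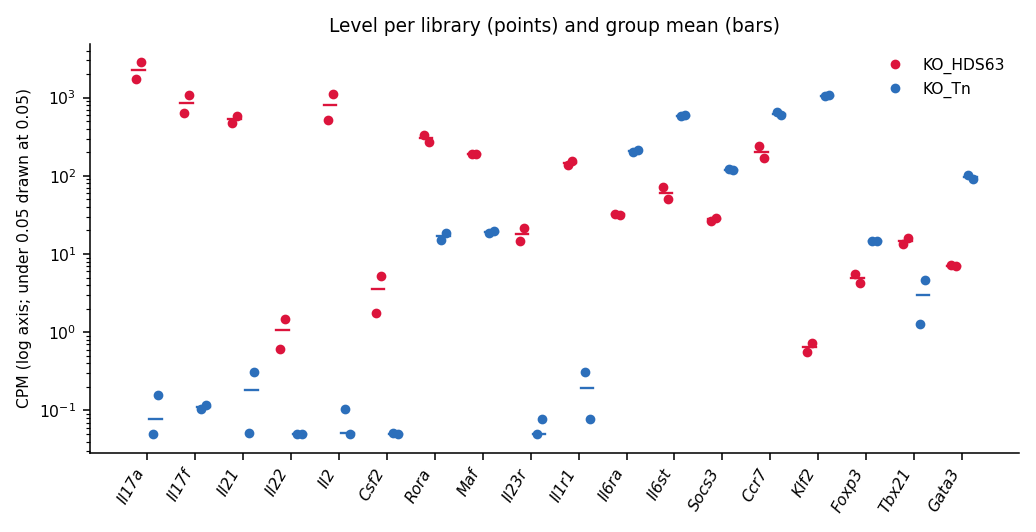
CPM on a log axis (vertical; levels under 0.05 are drawn at 0.05) of 18 genes (horizontal axis), with points for the 2 libraries of KO_HDS63 (red, left) and of KO_Tn (blue, right) and short bars for group means. Il17a, Il17f, Il21 and Il2 lie at 479 CPM or more in KO_HDS63 and at 0.313 CPM or less in KO_Tn, and Klf2, Il6st and Il6ra lie the other way round.

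The start regions of Il17a and Il17f are shown because both genes mark the Th17 fate, Il17f being the reporter locus of the sort. Nuclear receptors such as the product of Rora bind motifs with the core AGGTCA. The 250 bases before each RefSeq start site (GRCm38.p6) were read for AGGTCA on both strands, and the capitals mark it. The Il17a window is chr1:20730655-20730904 on the plus strand and the Il17f window is chr1:20784271-20784520 on the minus strand.
Il17a: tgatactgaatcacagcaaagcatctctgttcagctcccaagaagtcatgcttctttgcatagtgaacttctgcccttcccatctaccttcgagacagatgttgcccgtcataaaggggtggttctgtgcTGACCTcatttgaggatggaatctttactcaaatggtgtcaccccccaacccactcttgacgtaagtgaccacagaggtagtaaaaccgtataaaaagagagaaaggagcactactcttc
Il17f: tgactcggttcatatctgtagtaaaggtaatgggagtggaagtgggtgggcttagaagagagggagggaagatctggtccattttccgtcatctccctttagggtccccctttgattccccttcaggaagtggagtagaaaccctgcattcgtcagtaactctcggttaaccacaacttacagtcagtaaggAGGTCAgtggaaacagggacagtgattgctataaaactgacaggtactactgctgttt
Of the 17 programme genes, 13 had a window in the RefSeq table and 6 of those (Ccl20, Ccr6, Hif1a, Il17a, Il17f and Il23r) held the letters, beside 13.1% of the 10363 tested genes with a window. AGGTCA is also the core of sites for other nuclear receptors, and a match is a description of letters and not of binding.

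Most genes assigned to pathogenic Th17 cells, and most of those assigned to non-pathogenic ones, rose. Of 12 tested genes of the pathogenic list, 10 rose and 1 fell, with a median log2 fold change of 4.57 (4.45 with 2 genes at their bound). Csf2, which encodes GM-CSF, read 1.76 and 5.28 CPM in KO_HDS63 and 0.0517 and 0 CPM in KO_Tn, with 1 naive read in all. Il3, a related growth factor gene, read 1.73 and 7.95 CPM in KO_HDS63 and 0 in KO_Tn, at least 35.6-fold higher. For both genes the 2 cultured libraries lay far apart, replicate 2 being the higher. Tbx21, which encodes the Th1 factor T-bet, read 13.6 and 16.2 CPM in KO_HDS63 and 1.29 and 4.62 CPM in KO_Tn (log2 fold change 2.29, SE 0.51, adjusted p 0.00212). The gene of the list that fell was Stat4, the mediator of IL-12 signalling, with 49.9 and 50.2 CPM in KO_HDS63 and 99.7 and 97.7 CPM in KO_Tn (log2 fold change -0.98, SE 0.09, adjusted p 2.85e-06).

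Of 8 non-pathogenic genes, 5 rose and 2 (Ikzf3 and Il6st) fell. Il10, an anti-inflammatory cytokine gene, read 5.28 and 12.04 CPM in KO_HDS63 and 0.103 and 0.352 CPM in KO_Tn (log2 fold change 5.14, SE 0.65, adjusted p 2.99e-05), again with replicate 2 the higher. Il9 read 0.727 and 0.654 CPM in KO_HDS63 and 0 in KO_Tn, at least 5.07-fold higher. Ikzf3, which encodes the zinc finger protein Aiolos, fell to 91.6 and 61.3 CPM in KO_HDS63, against 168 and 195 CPM in KO_Tn (log2 fold change -1.25, SE 0.19, adjusted p 0.000138).

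The receptor genes through which IL-6 and hyper-IL-6 act were lower in the cultured cells. Of 9 tested genes of IL-6 family receptors, their sheddases and kinases, 3 rose and 6 fell, with a median log2 fold change of -2.05. Il6st, which encodes gp130, fell to 71.03 and 51.1 CPM in KO_HDS63, against 584 and 592 CPM in KO_Tn (log2 fold change -3.27, SE 0.16, adjusted p 2.03e-08). Il6ra fell in the same direction (log2 fold change -2.69, SE 0.18, adjusted p 2.3e-07), at the per-library levels given above. Il11ra1, the alpha chain of the IL-11 receptor, fell to 2.63 and 3.02 CPM in KO_HDS63, against 18.1 and 17.6 CPM in KO_Tn (log2 fold change -2.66, SE 0.22, adjusted p 8.94e-07). The 3 that rose were the kinase gene Jak2, with 874 and 963 CPM in KO_HDS63 and 174 and 179 CPM in KO_Tn (log2 fold change 2.38, SE 0.10, adjusted p 6.65e-09), and the sheddases Adam10 and Adam17, whose products can release IL-6R alpha from the cell surface. Adam10 read 256 and 243 CPM in KO_HDS63 and 123 and 128 CPM in KO_Tn (log2 fold change 0.99, SE 0.10, adjusted p 4.58e-06). Adam17 read 121 and 120.0 CPM in KO_HDS63 and 89.5 and 90.7 CPM in KO_Tn (log2 fold change 0.42, SE 0.08, adjusted p 0.000674), the smallest change of the 9. Neither sheddase gene passed a test against a 2-fold minimum.

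Feedback genes of cytokine signalling split by family member. Of 13 STAT and SOCS genes and known STAT3 targets, 6 rose and 4 fell (46.2% and 30.8%, near the 37.5% and 34.4% of all tested genes). Socs3, the inhibitor of gp130 signalling, fell to 26.8 and 29.01 CPM in KO_HDS63, against 121 and 118 CPM in KO_Tn (log2 fold change -2.10, SE 0.23, adjusted p 1.08e-05). Socs2 and Cish, inhibitors linked to STAT5, rose. Socs2 read 92.4 and 80.3 CPM in KO_HDS63 and 0.826 and 1.604 CPM in KO_Tn (log2 fold change 6.10, SE 0.20, adjusted p 1.5e-09), and Cish read 293 and 274 CPM in KO_HDS63 and 31.6 and 41.3 CPM in KO_Tn (log2 fold change 2.96, SE 0.13, adjusted p 7.74e-09). Stat5a rose to 603 and 632 CPM in KO_HDS63, against 119.8 and 116 CPM in KO_Tn (log2 fold change 2.39, SE 0.09, adjusted p 2.7e-09).

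Of 18 TGF-beta pathway genes, 7 were higher and 8 lower. These shares, 38.9% and 44.4%, were near the 37.5% and 34.4% of all tested genes. Smad7, the inhibitory SMAD, fell to 40.1 and 36.99 CPM in KO_HDS63, against 543 and 441 CPM in KO_Tn (log2 fold change -3.67, SE 0.15, adjusted p 5.82e-09). The type II receptor gene Tgfbr2 fell to 100.1 and 82.4 CPM in KO_HDS63, against 656 and 602 CPM in KO_Tn (log2 fold change -2.79, SE 0.12, adjusted p 6.01e-09), and the co-receptor gene Tgfbr3 fell as well (log2 fold change -2.77, SE 0.19, adjusted p 2.47e-07). The type I receptor gene Tgfbr1 went the other way and rose (log2 fold change 1.15, SE 0.17, adjusted p 9.94e-05). Furin, a protease that processes TGF-beta precursors, rose to 927 and 1182 CPM in KO_HDS63, against 79.03 and 81.3 CPM in KO_Tn (log2 fold change 3.72, SE 0.14, adjusted p 3.86e-09).

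Cytokine receptor genes of the common gamma chain family divided, 44.4% higher and 55.6% lower, beside 37.5% and 34.4% of all tested genes. Of 9, 4 rose and 5 fell (3 and 5 without KO_HDS63 replicate 2). Il2ra, the IL-2 receptor alpha chain of activated T cells, read 1391 and 1376 CPM in KO_HDS63 and 8.57 and 10.2 CPM in KO_Tn (log2 fold change 7.20, SE 0.16, adjusted p 1.43e-10). Il2rb, the shared IL-2 and IL-15 receptor chain, read 558 and 573 CPM in KO_HDS63 and 42.4 and 57.4 CPM in KO_Tn (log2 fold change 3.50, SE 0.14, adjusted p 5.04e-09). Both were nearly equal in the 2 cultured libraries. Il7r, the IL-7 receptor on which naive T cells depend, fell to 65.9 and 74.2 CPM in KO_HDS63, against 627 and 768 CPM in KO_Tn (log2 fold change -3.32, SE 0.15, adjusted p 8.13e-09). Il9r had no read in KO_HDS63 and 0.671 and 1.76 CPM in KO_Tn, at least 14.7-fold lower.

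Genes of other helper lineages were split between higher and lower, as were all tested genes (37.5% and 34.4%). The shares were 53.3% and 33.3% for the Th1 list and 28.6% and 28.6% for the Th2 list. They were 56.2% and 18.8% for the regulatory T cell list and 50% and 20% for the follicular helper list, both given below. Of 15 Th1 genes, 8 rose and 5 fell (9 and 5 without KO_HDS63 replicate 2). Ifng, the Th1 cytokine gene, read 7.07 and 21.1 CPM in KO_HDS63 and 0.723 and 1.799 CPM in KO_Tn (log2 fold change 3.43, SE 0.71, adjusted p 0.00119). The IL-12 and IL-23 receptor chain gene Il12rb1 rose to 192 and 223 CPM in KO_HDS63, against 7.54 and 10.9 CPM in KO_Tn (log2 fold change 4.47, SE 0.18, adjusted p 4.71e-09). Il18r1, the IL-18 receptor, fell to 7.72 and 8.497 CPM in KO_HDS63, against 90.4 and 104 CPM in KO_Tn (log2 fold change -3.58, SE 0.15, adjusted p 6.6e-09).

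Of 7 tested Th2 genes, 2 rose and 2 fell (1 and 2 without KO_HDS63 replicate 1 or without KO_Tn replicate 2). Gata3, the Th2 master regulator that naive T cells also express, fell to 7.16 and 7.03 CPM in KO_HDS63, against 102 and 90.4 CPM in KO_Tn (log2 fold change -3.76, SE 0.17, adjusted p 1.21e-08). Il4 and Il5 did not have enough reads to be tested. The chemokine receptor gene Ccr4, found on several activated helper lineages, rose to 151 and 129 CPM in KO_HDS63, against 1.55 and 1.68 CPM in KO_Tn (log2 fold change 6.43, SE 0.15, adjusted p 1.92e-10).

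Of 16 regulatory T cell genes, 9 rose and 3 fell, and the lineage factor was among those that fell. Foxp3 read 5.56 and 4.25 CPM in KO_HDS63 and 14.9 and 14.6 CPM in KO_Tn (log2 fold change -1.59, SE 0.27, adjusted p 0.000351). Ikzf2, which encodes Helios, fell to 1.17 and 1.39 CPM in KO_HDS63, against 11.98 and 17.95 CPM in KO_Tn (log2 fold change -3.55, SE 0.31, adjusted p 1.43e-06), and Gpr83 fell to 0.307 and 0.708 CPM, against 10.3 and 10.7 CPM (log2 fold change -4.35, SE 0.36, adjusted p 1.05e-06). The largest rises of the list were Il2ra, given above, and Tnfrsf4, which encodes OX40, and conventional T cells also express both when activated. Tnfrsf4 read 567 and 758 CPM in KO_HDS63 and 16.3 and 15.1 CPM in KO_Tn (log2 fold change 5.40, SE 0.15, adjusted p 6.82e-10). Of 10 tested follicular helper genes, 5 rose and 2 fell (5 and 1 without either KO_Tn library). Pdcd1, which encodes PD-1, rose to 166 and 201 CPM in KO_HDS63, against 3.87 and 4.77 CPM in KO_Tn (log2 fold change 5.40, SE 0.21, adjusted p 4.34e-09).

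Of 15 tested cytokine ligand genes, 12 rose and 2 fell (11 and 2 without KO_HDS63 replicate 2, 11 and 1 without KO_Tn replicate 1), and Il4, Il5 and Il6 had too few reads to be tested. Il2, the T cell growth factor induced by stimulation, read 511 and 1113 CPM in KO_HDS63 and 0.103 and 0 CPM in KO_Tn, with 2 naive reads in all. This low naive value stands although the labels give PMA and ionomycin for the naive libraries. Areg, an epidermal growth factor family ligand, read 15.2 and 19.7 CPM in KO_HDS63 and 0.0517 and 0.117 CPM in KO_Tn (log2 fold change 7.56, SE 0.49, adjusted p 1.57e-07). Ltb, which encodes lymphotoxin beta, fell to 192 and 168 CPM in KO_HDS63, against 653 and 648 CPM in KO_Tn (log2 fold change -1.86, SE 0.15, adjusted p 7.37e-07). Cd40lg, the helper ligand for B cells, fell to 71.8 and 105 CPM in KO_HDS63, against 162 and 132 CPM in KO_Tn (log2 fold change -0.73, SE 0.19, adjusted p 0.00447), and its call was lost without KO_Tn replicate 1.

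Of 24 immediate-early and stimulation-induced genes, 9 rose and 10 fell, with a median log2 fold change of -0.06 (0.11 without KO_Tn replicate 1). The shares, 37.5% and 41.7%, were near the 37.5% and 34.4% of all tested genes. Fos, a subunit of the AP-1 factor, fell to 3.94 and 4.63 CPM in KO_HDS63, against 440.0 and 648 CPM in KO_Tn (log2 fold change -6.99, SE 0.41, adjusted p 6.27e-08). Fosb fell to 5.95 and 4.93 CPM, against 156 and 167 CPM (log2 fold change -4.89, SE 0.48, adjusted p 3.95e-06), and Jun fell to 106 and 108 CPM, against 959 and 672 CPM (log2 fold change -2.93, SE 0.28, adjusted p 3.47e-06). All 3 were lower in both cultured libraries than in either naive one. The AP-1 gene Fosl1 went the other way and rose to 47.1 and 45.97 CPM in KO_HDS63, against 0.258 and 0.156 CPM in KO_Tn (log2 fold change 7.83, SE 0.33, adjusted p 7.02e-09). Whether the stimulation, the sort or the handling set these levels was not tested.

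Of 22 genes of naive and resting T cells, 21 fell and 1 rose (20 and 1 without KO_HDS63 replicate 2), with a median log2 fold change of -3.64 (-3.64 with the gene that had no read in KO_HDS63 at its bound). Klf2, the factor that keeps T cells quiescent and circulating, fell to 0.559 and 0.735 CPM in KO_HDS63, against 1055 and 1065 CPM in KO_Tn (log2 fold change -10.67, SE 0.19, adjusted p 1.22e-10). Its relative Klf3 fell to 0.475 and 0.327 CPM, against 252 and 262 CPM (log2 fold change -9.31, SE 0.24, adjusted p 4.51e-10). Dapl1, a gene of naive T cells, had no read in KO_HDS63 and 44.9 and 51.1 CPM in KO_Tn, at least 580.2-fold lower. Ccr7, the lymph node homing receptor gene, fell to 237 and 171 CPM in KO_HDS63, against 658 and 594 CPM in KO_Tn (log2 fold change -1.62, SE 0.20, adjusted p 2.2e-05). S1pr1, the egress receptor, fell to 8.25 and 14.3 CPM in KO_HDS63, against 838 and 613 CPM in KO_Tn (log2 fold change -6.01, SE 0.31, adjusted p 2.37e-08). The gene that rose was Bach2, a repressor of effector differentiation, with 1079 and 752 CPM in KO_HDS63 and 354 and 312 CPM in KO_Tn (log2 fold change 1.46, SE 0.20, adjusted p 5.43e-05).

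**Figure D4:**
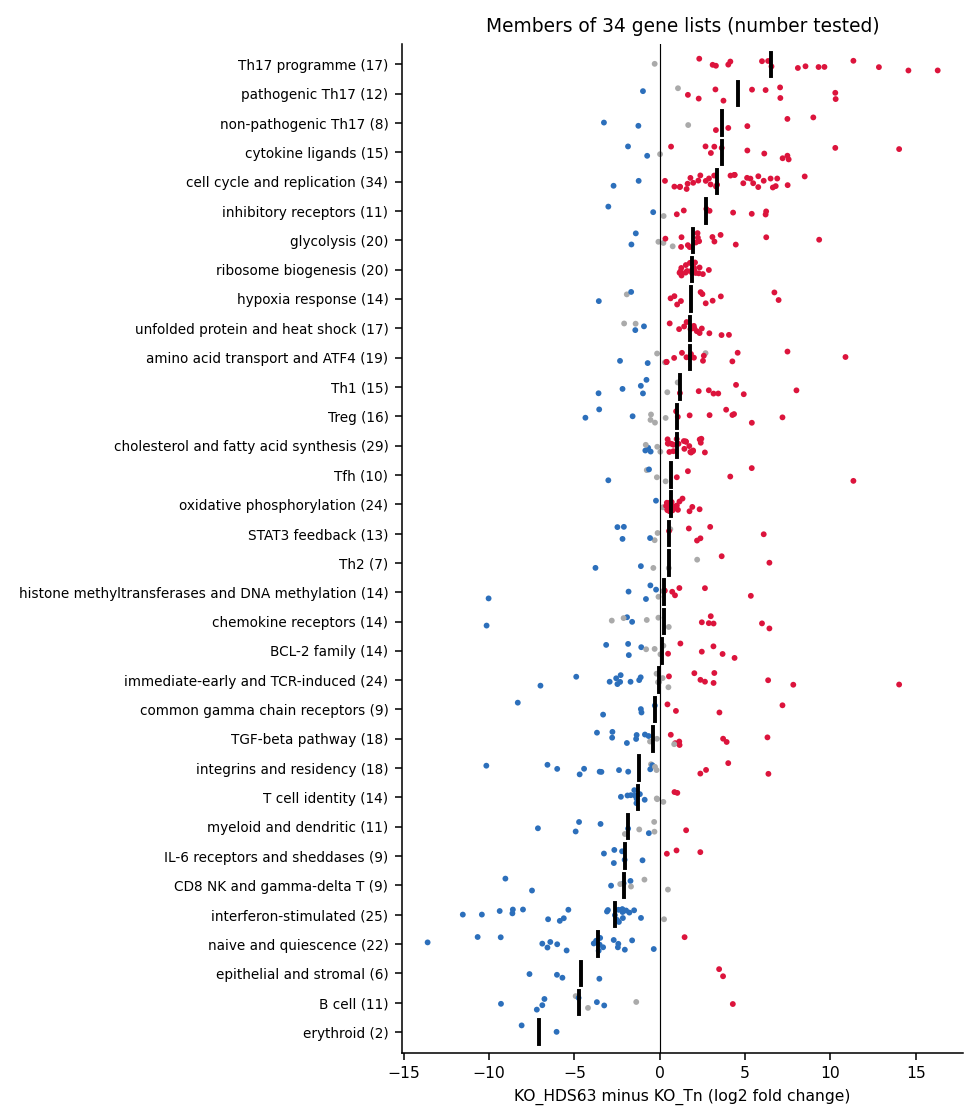
Log2 fold change of KO_HDS63 minus KO_Tn (horizontal axis) of the tested members of 34 gene lists (rows, with the number tested), red for higher, blue for lower and grey for not passed, with a black tick at the median. Lists are sorted by median, with Th17 programme (6.55) at the top, interferon-stimulated and naive genes (-2.62 and -3.64) among the lowest and the 2 erythroid genes at the bottom. For genes with few or no reads in a group the fitted value is no bound.

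Nearly all interferon-stimulated genes of the list were lower in the cultured cells. Of 25 tested, none rose and 24 fell, with a median log2 fold change of -2.62 (-2.62 with the gene that had no read in KO_HDS63 at its bound). Irf7, the factor that amplifies the type I interferon response, fell to 0.280 and 0.272 CPM in KO_HDS63, against 173 and 198 CPM in KO_Tn (log2 fold change -9.38, SE 0.17, adjusted p 1.22e-10). Oas1a, a sensor of double-stranded RNA, had no read in KO_HDS63 and 10.2 and 12.8 CPM in KO_Tn, at least 139-fold lower. Oasl2 read 0.0280 and 0.0272 CPM in KO_HDS63, 1 read per library, and 38.2 and 47.9 CPM in KO_Tn. Gbp2, the member that did not pass, read 75.00 and 117 CPM in KO_HDS63 and 85.1 and 75.5 CPM in KO_Tn (log2 fold change 0.26, SE 0.29, adjusted p 0.447). The same count, 24 of 25 lower, was found without KO_HDS63 replicate 2.

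Promoters of this list are shown because 24 of its 25 tested members fell and because the interferon-activated complexes bind a known element. That element, the interferon-stimulated response element, was searched by its core, GAAA followed by NN and again by GAAA, on both strands (capitals). The windows are the 250 bases before the RefSeq start of Ifit1 (chr19:34640639-34640888, plus strand), an RNA-binding antiviral gene, and of Irgm1 (chr11:48871421-48871670, minus strand), an immunity-related GTPase gene.
Ifit1: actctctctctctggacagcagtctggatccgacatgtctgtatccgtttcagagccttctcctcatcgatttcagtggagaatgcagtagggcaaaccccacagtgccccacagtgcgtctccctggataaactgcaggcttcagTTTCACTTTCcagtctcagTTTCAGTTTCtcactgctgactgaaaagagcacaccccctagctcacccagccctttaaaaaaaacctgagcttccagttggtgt
Irgm1: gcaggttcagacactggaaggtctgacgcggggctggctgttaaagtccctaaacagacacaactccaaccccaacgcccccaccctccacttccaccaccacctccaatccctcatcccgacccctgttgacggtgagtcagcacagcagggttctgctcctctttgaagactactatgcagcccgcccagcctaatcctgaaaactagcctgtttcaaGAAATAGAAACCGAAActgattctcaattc
Ifit1 read 0.112 and 0.218 CPM in KO_HDS63 and 53.05 and 78.6 CPM in KO_Tn (log2 fold change -8.60, SE 0.37, adjusted p 6.95e-09), and Irgm1 read 33.5 and 38.1 CPM in KO_HDS63 and 164 and 162 CPM in KO_Tn (log2 fold change -2.19, SE 0.19, adjusted p 1.25e-06). The letters were in 13 of the 21 windows of list genes, beside 3.19% of the 10363 tested genes with a window. Those 13 included Gbp2, which did not pass, and Gbp5, which had too few reads to be tested. The list holds genes known to respond to interferon, so the share describes the list and not its fall. Matches of this core can overlap each other, as in Irgm1, where 2 matches form a single run of capitals. Ifit1 and Irgm1 were chosen after their values and windows were seen.

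Most of the largest changes by fitted value were genes with no read in a group. Of the 15 largest rises among genes with a mean of at least 2 log2 CPM, Il17a and Il2 had 4 and 2 naive reads, and the other 13 had none. Col4a1 and Col4a2, neighbouring collagen genes, read 265 and 348 CPM and 209 and 261 CPM in KO_HDS63 and 0 in KO_Tn, at least 2252-fold and 1725-fold higher. Spp1, which encodes osteopontin, read 127 and 242 CPM in KO_HDS63 and 0 in KO_Tn, at least 1356-fold higher, and Mmp13, a collagenase gene, read 163 and 190.0 CPM and 0, at least 1297-fold higher. All of these were at 0 in both naive libraries. Dlg2, a scaffold gene better known from neurons, read 145 and 111 CPM in KO_HDS63 and 0 in KO_Tn, at least 941-fold higher. The remaining rises were Ccl20 above and Srxn1, Foxf2, Vax2, Cysltr1, Galnt14, Upp1 and Atp6v0d2, with bounds between 275-fold and 690.4-fold. Collagens, osteopontin and collagenase are also products of stromal and bone cells. Of the collagen markers of the epithelial and stromal list, Col1a1 was tested, while Col1a2 and Col3a1 had too few reads. Among the 6 tested genes of that list, 2 rose and 4 fell. Whether such cells gave these reads was not tested.

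Of the 15 largest falls, 11 had no read in KO_HDS63. Several are known as interferon-inducible genes (Ifi213, Ifi206, Ifi208, Ifi214, Oas2, Oasl1, Rtp4 and Ddx60). Ifi213 and Ifi206, genes of the HIN-200 family of DNA-binding proteins, had no read in KO_HDS63 and 418 and 422 CPM and 203 and 219 CPM in KO_Tn, at least 5078-fold and 2546-fold lower. Oas2 had no read in KO_HDS63 and 159 and 146 CPM in KO_Tn, at least 1839-fold lower. Ifi208 and Ddx60 each had 1 read in all in KO_HDS63, with 150.3 and 151 CPM and 78.1 and 100.4 CPM in KO_Tn. Dtx1, a Notch pathway ubiquitin ligase gene, fell to 0.0559 and 0.136 CPM in KO_HDS63, against 475 and 434 CPM in KO_Tn (log2 fold change -12.14, SE 0.21, adjusted p 1.11e-10). Nod1, a sensor of bacterial cell walls, had no read in KO_HDS63 and 59.04 and 76.4 CPM in KO_Tn, at least 818-fold lower. HIN-200 and OAS genes have near-identical relatives, so reads between members of a family may be misplaced or lost.

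The genes with the highest CPM among those that rose in KO_HDS63 were Hsp90ab1, Ncl, Pabpc1, Hspa8 and Hspa5, which encode chaperones and RNA-binding proteins. Hsp90ab1 read 4513 and 4652 CPM in KO_HDS63 and 1804 and 1488 CPM in KO_Tn (log2 fold change 1.48, SE 0.26, adjusted p 0.00042). The corresponding genes that fell were mt-Co1, H2-K1, Actb, Macf1 and Arhgef1. H2-K1, a class I MHC gene, fell to 541 and 621 CPM in KO_HDS63, against 5067 and 4987 CPM in KO_Tn (log2 fold change -3.11, SE 0.11, adjusted p 2.28e-09), and Arhgef1, a guanine nucleotide exchange factor gene of lymphocytes, fell to 438 and 434 CPM, against 4213 and 4221 CPM (log2 fold change -3.27, SE 0.10, adjusted p 8.3e-10). The groups were far apart in both. Actb, a common housekeeping reference, was slightly lower, with 3535 and 3481 CPM in KO_HDS63 and 4259 and 4640.1 CPM in KO_Tn (log2 fold change -0.34, SE 0.08, adjusted p 0.00301).

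Of 34 cell cycle and replication genes, 32 rose and 2 fell (31 and 2 without KO_HDS63 replicate 2), with a median log2 fold change of 3.33. Aurkb, a mitotic kinase gene, read 66.7 and 80.2 CPM in KO_HDS63 and 0.568 and 0.274 CPM in KO_Tn (log2 fold change 7.50, SE 0.36, adjusted p 1.54e-08). Cdk1, the kinase of mitotic entry, read 75.4 and 93.8 CPM in KO_HDS63 and 0.568 and 0.821 CPM in KO_Tn (log2 fold change 6.89, SE 0.24, adjusted p 1.8e-09). The largest rise of the list was in an inhibitor, Cdkn1a, which encodes p21, with 64.3 and 83.8 CPM in KO_HDS63 and 0.310 and 0.117 CPM in KO_Tn (log2 fold change 8.50, SE 0.51, adjusted p 8.02e-08). The 2 that fell were Cdkn1b, which encodes the quiescence inhibitor p27, with 59.4 and 50.1 CPM in KO_HDS63 and 383 and 330.0 CPM in KO_Tn (log2 fold change -2.70, SE 0.12, adjusted p 1.03e-08), and Ccnd3, a G1 cyclin gene (log2 fold change -1.23, SE 0.18, adjusted p 0.000119).

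Mcm6, a subunit of the replicative helicase that rose to 377 and 395 CPM in KO_HDS63, against 69.4 and 78.6 CPM in KO_Tn (log2 fold change 2.38, SE 0.10, adjusted p 5.93e-09), is shown for the element of the E2F factors, which are known to drive replication genes. The window is chr1:128359706-128359955 on the minus strand (GRCm38.p6), and the capitals mark TTTGGCGC, searched together with TTTCCCGC on both strands.
Mcm6: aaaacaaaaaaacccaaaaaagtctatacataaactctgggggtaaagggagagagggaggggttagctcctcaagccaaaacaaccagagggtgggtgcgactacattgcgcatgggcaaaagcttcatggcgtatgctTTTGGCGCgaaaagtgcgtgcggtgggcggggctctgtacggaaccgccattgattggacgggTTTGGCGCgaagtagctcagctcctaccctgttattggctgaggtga
Of 29 list genes with a window, 4 (Cdk2, Mcm5, Mcm6 and Mcm7) held either run of letters, beside 2.83% of the tested genes with a window. Mcm6 was chosen after its values and window were seen.

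Ribosome biogenesis genes rose without exception in the list, with 20 of 20 higher and a median log2 fold change of 1.89. Nop16, a nucleolar protein gene and target of MYC, read 144 and 151 CPM in KO_HDS63 and 21.5 and 18.6 CPM in KO_Tn (log2 fold change 2.88, SE 0.11, adjusted p 3.89e-09). Ncl, which encodes the nucleolar protein nucleolin, read 3132 and 3021 CPM in KO_HDS63 and 541 and 523 CPM in KO_Tn (log2 fold change 2.53, SE 0.09, adjusted p 1.9e-09). All 20 were higher without KO_HDS63 replicate 2 as well.

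Glycolysis genes mostly rose. Of 20 glycolysis genes, 15 rose and 2 fell, with a median log2 fold change of 1.94. Hk2, the inducible hexokinase, read 260.1 and 262 CPM in KO_HDS63 and 0 and 0.704 CPM in KO_Tn (log2 fold change 9.35, SE 0.36, adjusted p 3.34e-09). Slc16a3, a lactate exporter, read 143 and 172 CPM in KO_HDS63 and 1.03 and 2.93 CPM in KO_Tn (log2 fold change 6.24, SE 0.28, adjusted p 1.07e-08), and Tpi1, triose phosphate isomerase, read 568 and 688 CPM and 26.8 and 30.2 CPM (log2 fold change 4.46, SE 0.13, adjusted p 8.8e-10). Naive cells had almost no reads of Hk2. The 2 that fell were the glucose transporter gene Slc2a3, with 18.2 and 18.4 CPM in KO_HDS63 and 57.7 and 57.5 CPM in KO_Tn (log2 fold change -1.66, SE 0.10, adjusted p 7.01e-08), and the muscle phosphofructokinase gene Pfkm, with 11.8 and 10.5 CPM and 26.9 and 31.9 CPM (log2 fold change -1.40, SE 0.14, adjusted p 3.72e-06).

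Of 14 hypoxia response genes, 11 rose and 2 fell. Egln3, an oxygen-sensing hydroxylase gene induced by HIF-1, read 219.6 and 252 CPM in KO_HDS63 and 1.498 and 2.19 CPM in KO_Tn (log2 fold change 6.97, SE 0.18, adjusted p 4.6e-10). Bhlhe40, a transcription factor gene needed for cytokine output of T cells, read 803 and 789 CPM in KO_HDS63 and 7.39 and 7.67 CPM in KO_Tn (log2 fold change 6.72, SE 0.16, adjusted p 2.27e-10). Pdk1, a HIF-1 target that limits pyruvate entry into mitochondria, fell to 55.8 and 50.7 CPM in KO_HDS63, against 637 and 626 CPM in KO_Tn (log2 fold change -3.57, SE 0.10, adjusted p 6.12e-10).

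The start region of Ldha, which encodes lactate dehydrogenase A, is shown as a glycolytic gene whose window carries the hypoxia response core ACGTG several times. Ldha rose to 1569 and 1960.4 CPM in KO_HDS63, against 352 and 358 CPM in KO_Tn (log2 fold change 2.31, SE 0.17, adjusted p 3.54e-07). The window is chr7:46845554-46845803 on the plus strand (GRCm38.p6), and the capitals mark ACGTG on either strand, so that CACGTG counts on both.
Ldha: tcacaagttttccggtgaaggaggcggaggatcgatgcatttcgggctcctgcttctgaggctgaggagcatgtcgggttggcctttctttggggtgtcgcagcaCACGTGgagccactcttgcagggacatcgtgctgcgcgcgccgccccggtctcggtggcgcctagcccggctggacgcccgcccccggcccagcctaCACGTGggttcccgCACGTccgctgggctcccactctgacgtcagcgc
The core was in the window of 10 of 11 hypoxia genes and 11 of 19 glycolysis genes that had a window. Of the tested genes with a window, 24.9% held it. The hypoxia list holds genes known to respond to hypoxia, so the share describes the list and does not bear on these data. Genes with the core included Ddit4 and Pfkm, which fell, and Car9, which did not pass. CACGTG is also the E-box of MYC and related factors. Ldha was chosen after its values and window were seen.

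Of 24 oxidative phosphorylation genes, 22 rose and 1 fell (19 and 0 without KO_HDS63 replicate 2), with a median log2 fold change of 0.64. Cycs, which encodes cytochrome c, read 49.5 and 53.03 CPM in KO_HDS63 and 12.03 and 8.37 CPM in KO_Tn (log2 fold change 2.34, SE 0.19, adjusted p 1e-06). Sdha, a subunit of complex II, was the member that fell, with 228 and 228 CPM in KO_HDS63 and 272 and 258 CPM in KO_Tn (log2 fold change -0.22, SE 0.08, adjusted p 0.0308), and its call was lost when any 1 of the 4 libraries was left out. The groups did not overlap, but the difference was small. The mitochondrially encoded mt-Co1 fell to 3952 and 3896 CPM in KO_HDS63, against 5779 and 6186 CPM in KO_Tn (log2 fold change -0.61, SE 0.09, adjusted p 0.000139).

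Biosynthetic and stress-response genes mostly rose. Of 29 cholesterol and fatty acid synthesis genes, 23 rose and 3 fell (21 and 2 without KO_HDS63 replicate 2), with a median log2 fold change of 0.99. Idi1, of the isoprenoid pathway, read 30.2 and 22.3 CPM in KO_HDS63 and 5.32 and 3.17 CPM in KO_Tn (log2 fold change 2.65, SE 0.24, adjusted p 2.09e-06), and Cyp51, a sterol demethylase gene, read 237 and 210.2 CPM and 43.4 and 40.9 CPM (log2 fold change 2.41, SE 0.13, adjusted p 4.39e-08). Of 19 amino acid transport and ATF4 genes, 14 rose and 2 fell (12 and 2 without KO_HDS63 replicate 2). Asns, asparagine synthetase, read 50.2 and 48.97 CPM in KO_HDS63 and 0.0517 and 0 CPM in KO_Tn, with 1 naive read in all, and Slc1a4, a neutral amino acid transporter gene, read 61.7 and 56.8 CPM and 2.94 and 2.11 CPM (log2 fold change 4.57, SE 0.27, adjusted p 7.45e-08). Trib3, a stress target of ATF4, fell to 1.96 and 1.74 CPM in KO_HDS63, against 10.5 and 8.06 CPM in KO_Tn (log2 fold change -2.32, SE 0.26, adjusted p 1.25e-05). Of 17 unfolded protein and heat shock genes, 13 rose and 2 fell (13 and 1 without KO_HDS63 replicate 1 or without KO_Tn replicate 1). Atf6, a sensor of the endoplasmic reticulum, read 183 and 179.8 CPM in KO_HDS63 and 9.45 and 12.2 CPM in KO_Tn (log2 fold change 4.06, SE 0.15, adjusted p 3.08e-09).

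Survival, inhibitory and trafficking genes changed member by member. Of all tested genes, 37.5% rose and 34.4% fell. The shares were 72.7% and 18.2% for inhibitory receptor genes and 42.9% and 21.4% for chemokine receptor genes. For integrin and residency genes they were 22.2% and 61.1%. Of 14 tested BCL-2 family genes, 6 rose and 4 fell (42.9% and 28.6%, near the 37.5% and 34.4% of all tested genes). Bcl2l1, which encodes the survival protein BCL-XL, rose to 245 and 260.2 CPM in KO_HDS63, against 19.8 and 19.4 CPM in KO_Tn (log2 fold change 3.69, SE 0.15, adjusted p 5.85e-09), while Bcl2 fell to 94.3 and 73.05 CPM, against 264 and 339 CPM (log2 fold change -1.85, SE 0.16, adjusted p 1.62e-06). The pro-apoptotic Pmaip1 rose (log2 fold change 4.39, SE 0.42, adjusted p 3.32e-06) and Bbc3 fell (log2 fold change -3.14, SE 0.30, adjusted p 3.33e-06). Of 11 tested inhibitory receptor and exhaustion genes, 8 rose and 2 fell (8 and 3 without KO_HDS63 replicate 2). Lag3, a checkpoint receptor gene, read 303 and 369 CPM in KO_HDS63 and 4.24 and 4.81 CPM in KO_Tn (log2 fold change 6.21, SE 0.17, adjusted p 5.7e-10), and Cd200 read 631 and 658 CPM and 7.23 and 9.701 CPM (log2 fold change 6.24, SE 0.16, adjusted p 4.51e-10). Tox, a factor of exhausted T cells, fell to 8.39 and 6.86 CPM in KO_HDS63, against 56.1 and 66.6 CPM in KO_Tn (log2 fold change -3.01, SE 0.15, adjusted p 2.16e-08).

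Of 14 chemokine receptor genes, 6 rose and 3 fell (4 and 3 without KO_HDS63 replicate 2). Ccr9, the gut-homing receptor gene, had no read in KO_HDS63 and 4.49 and 4.26 CPM in KO_Tn, at least 52.9-fold lower. Of 18 integrin and residency genes, 4 rose and 11 fell (4 and 9 without KO_HDS63 replicate 2). Gpr15, a receptor gene for homing to the colon, rose to 28.6 and 27.4 CPM in KO_HDS63, against 0.362 and 0.313 CPM in KO_Tn (log2 fold change 6.37, SE 0.19, adjusted p 8.41e-10). Cd44, the adhesion receptor of antigen-experienced T cells, rose to 686 and 444 CPM, against 34.1 and 35.7 CPM (log2 fold change 4.02, SE 0.19, adjusted p 1.29e-08). Itgb3, the integrin beta 3 gene, fell to 0.224 and 0.272 CPM in KO_HDS63, against 282 and 295 CPM in KO_Tn (log2 fold change -10.16, SE 0.22, adjusted p 1.43e-10).

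Among 14 chromatin and DNA methylation genes, 7 rose and 5 fell (5 and 3 without KO_HDS63 replicate 2 or without KO_Tn replicate 2). Uhrf1, the cofactor of maintenance methylation, rose to 211 and 227 CPM in KO_HDS63, against 4.29 and 6.38 CPM in KO_Tn (log2 fold change 5.34, SE 0.17, adjusted p 1.14e-09), and Ezh2, the Polycomb methyltransferase gene, rose to 199.9 and 194 CPM, against 26.8 and 35.7 CPM (log2 fold change 2.65, SE 0.13, adjusted p 1.78e-08). Tet1, which encodes a methylcytosine dioxygenase, fell to 0.112 and 0 CPM in KO_HDS63, against 58.1 and 64.97 CPM in KO_Tn (log2 fold change -10.03, SE 0.36, adjusted p 2.3e-09). Tet3 fell to 160.4 and 123 CPM, against 479.7 and 523 CPM (log2 fold change -1.82, SE 0.16, adjusted p 1.35e-06). The shares of the list, 50% higher and 35.7% lower, stood beside 37.5% and 34.4% of all tested genes.

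T cell markers were well expressed in both groups. Of 14 T cell identity genes, 2 rose and 9 fell (2 and 10 without KO_HDS63 replicate 2), and the CD3 chain genes Cd3d, Cd3e and Cd3g were among those that fell. Cd3g read 79.6 and 89.3 CPM in KO_HDS63 and 309 and 316 CPM in KO_Tn (log2 fold change -1.89, SE 0.09, adjusted p 1.65e-08). Zap70, the kinase downstream of the receptor, rose to 740.0 and 763 CPM in KO_HDS63, against 373 and 361 CPM in KO_Tn (log2 fold change 1.03, SE 0.11, adjusted p 1.09e-05). Thy1 did not pass the test, with 617 and 829 CPM in KO_HDS63 and 631 and 615 CPM in KO_Tn (log2 fold change 0.21, SE 0.13, adjusted p 0.151). The cells carry a Thy1.1 reporter at Il17f, and whether reads of the reporter were counted in Thy1 was not tested. The level of the cells' own Thy1 can therefore not be read from these counts.

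Of 11 tested B cell markers, 1 (Ebf1) rose and 7 fell (1 and 4 without KO_HDS63 replicate 2), and the summed level was 9.36 and 10.98 CPM in KO_HDS63 and 409 and 448 CPM in KO_Tn. Nearly all of the naive sum was Ighm (3.77 and 3.92 CPM in KO_HDS63 and 407 and 424 CPM in KO_Tn). Cd79b had no read in KO_HDS63 and 0.826 and 3.99 CPM in KO_Tn. All 11 were higher in KO_Tn replicate 2 than in replicate 1, and without KO_Tn replicate 2 the count was 1 higher and 2 lower, with the list's median log2 fold change at 2.11, against -4.75 over all libraries. Without KO_HDS63 replicate 1, 1 was higher and 4 were lower. Of 11 tested myeloid and dendritic markers, 1 rose and 6 fell (1 and 5 without KO_HDS63 replicate 2), with summed levels of 61.6 and 76.1 CPM in KO_HDS63 and 45.9 and 50.5 CPM in KO_Tn, mostly Cst3 (54.1 and 66.3 CPM in KO_HDS63 and 21.7 and 19.5 CPM in KO_Tn), and C1qc was at 0 in KO_HDS63. Of 9 tested markers of CD8, NK and gamma-delta T cells, none rose and 5 fell (0 and 6 without KO_HDS63 replicate 2), with sums of 7.83 and 11.5 CPM in KO_HDS63 and 26.9 and 43.2 CPM in KO_Tn, and Klrb1c and Ncr1 were at 0 in KO_HDS63. Of 6 tested epithelial and stromal genes, 2 rose and 4 fell (2 and 2 without KO_HDS63 replicate 1), with sums of 20.2 and 18.98 CPM in KO_HDS63 and 271 and 295 CPM in KO_Tn, mostly Pecam1, which naive T cells express (5.03 and 3.595 CPM in KO_HDS63 and 268 and 292 CPM in KO_Tn). The 2 tested erythroid genes, Hba-a1 and Hbb-bs, had no read in KO_HDS63 or in KO_Tn replicate 1, and both calls (lower) were lost without either KO_HDS63 library or without KO_Tn replicate 2. The part of such cells in the results above was not tested.

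The response was then set against that of the cells labelled wild type. Each response joins 6 days of culture, TGF-beta, hyper-IL-6 and the sorting, so the part of hyper-IL-6 cannot be told apart. The KO_HDS63 group also includes replicate 2, which went against its label. In WT_HDS63 minus WT_Tn, 5495 genes rose (36.8%) and 4994 fell (33.5%), 70.3% in all. Of the calls, 9537 were shared in the same direction, which is 88.8% of the KO_HDS63 calls and 90.9% of the WT_HDS63 calls, and 3 were called in opposite directions. Over 10104 genes with a mean of at least 2 log2 CPM, the responses had a Pearson r of 0.98, a description across genes that are not independent. The test of the difference between the responses called 0 genes with edgeR (smallest adjusted p 0.417), with 1267 genes (8.49%) at an unadjusted p under 0.05, and DESeq2 called 51. The count differed with the filter, at 271 genes with no filter on low counts, and it was larger without WT_Tn replicate 2, which leaves 1 library in WT_Tn. The 2 WT_Tn libraries differed in make-up. Ribosomal protein genes took 6.19% and 4.73% of gene reads, and 28.2% and 31.1% of uniquely aligned reads lay outside annotated genes. Whether this set the counts was not tested. The absolute difference had a median of 0.18 and a 95th percentile of 0.71 on the log2 scale over those 10104 genes, with a median SE of 0.18.

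**Figure D5:**
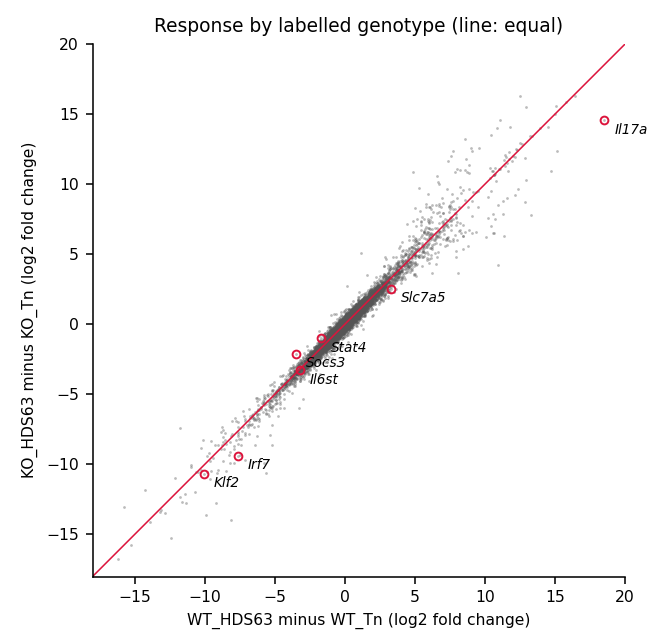
Log2 fold change of KO_HDS63 minus KO_Tn (vertical axis) against that of WT_HDS63 minus WT_Tn (horizontal axis), 1 point per gene with a mean of at least 2 log2 CPM (10104 genes), with the line of equal response. The points lie along the line (r = 0.98), and the spread is widest among the genes with the largest changes, which have few reads in a group.

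Of the IL-6 pathway genes Il6st, Il6ra and Socs3, none passed edgeR's test of a difference in response over all libraries, and DESeq2 called Socs3. For Il6st the response was -3.27 (SE 0.16) in KO_HDS63 and -3.20 (SE 0.16) in WT_HDS63 on the log2 scale, a difference of -0.06 (SE 0.21) with an adjusted p of 0.963. For Il6ra it was -2.69 (SE 0.18) in KO_HDS63 and -3.13 (SE 0.19) in WT_HDS63, a difference of 0.45 (SE 0.25) with an adjusted p of 0.604. For Socs3 it was -2.10 (SE 0.23) in KO_HDS63 and -3.50 (SE 0.24) in WT_HDS63, a difference of 1.40 (SE 0.32) with an adjusted p of 0.515 by edgeR and of 0.0171 by DESeq2. With edgeR it was called with no filter on low counts (adjusted p 5.53e-12) and without WT_Tn replicate 2 (adjusted p 0.00177), and its adjusted p was 0.275 or more under the other alternatives. Il6st and Il6ra were not called under any alternative. The naive libraries stood apart in Socs3, with 121 and 118 CPM in KO_Tn and 369 and 199 CPM in WT_Tn, while the cultured levels were 26.8 and 29.01 CPM in KO_HDS63 and 22.8 and 27.5 CPM in WT_HDS63. Il17a read 1714 and 2815 CPM in KO_HDS63 and 1399.6 and 1508 CPM in WT_HDS63, and both KO_HDS63 libraries were the higher ones. Its difference in response did not pass, at -3.94 (SE 3.40) with an adjusted p of 0.723 by edgeR. That estimate depends on naive levels near the floor (0 and 0.156 CPM in KO_Tn) and was 0.63 without KO_Tn replicate 2. It therefore gives neither the size nor the direction of a difference. Directly between KO_HDS63 and WT_HDS63, edgeR called 0 of 14926 genes. For Il17f the levels were 632 and 1064 CPM in KO_HDS63 and 588 and 640.1 CPM in WT_HDS63, and here the groups overlapped.

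Whether some other genes passed the test of the difference depended on the tool and the setting, and those named here were chosen after their values were seen. Stat4, Irf7 and Slc7a5 did not pass with edgeR over all libraries (the adjusted p given with each), whereas DESeq2 called all 3, with adjusted p of 0.00826, 0.0232 and 0.00826. With edgeR they were also called without WT_Tn replicate 2 (0.0291, 0.0299 and 0.0249) and with no filter on low counts (0.0135, 0.000788 and 0.000936), and their adjusted p was 0.2595 or more under the other alternatives. Stat4 had a difference of 0.72 (SE 0.13) and an adjusted p of 0.515, and it read 49.9 and 50.2 CPM in KO_HDS63 and 29.6 and 33.2 CPM in WT_HDS63, with 99.7 and 97.7 CPM in KO_Tn and 104 and 99.4 CPM in WT_Tn. Irf7 had a difference of -1.78 (SE 0.30) and an adjusted p of 0.515, and it read 0.280 and 0.272 CPM in KO_HDS63 and 0.548 and 0.580 CPM in WT_HDS63, with 173 and 198 CPM in KO_Tn and 114 and 106 CPM in WT_Tn. Slc7a5, an amino acid transporter gene of activated T cells, had a difference of -0.73 (SE 0.15) and an adjusted p of 0.515, with 484 and 479 CPM in KO_HDS63 and 500.1 and 489.5 CPM in WT_HDS63, and 88.9 and 77.02 CPM in KO_Tn and 47.4 and 55.04 CPM in WT_Tn.

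The smallest adjusted p of a difference by edgeR belonged to Pisd-ps1 (chr11:3125904-3131004), a pseudogene whose related copies make its count uncertain. It read 14.7 and 23.7 CPM in KO_HDS63 and 18.8 and 18.6 CPM in WT_HDS63, with 56.2 and 49.3 CPM in KO_Tn and 10.2 and 11.02 CPM in WT_Tn, a difference of -2.27 (SE 0.32) with an adjusted p of 0.417 by edgeR and of 5.62e-07 by DESeq2. With edgeR it was called with no filter on low counts (adjusted p 1.47e-18) and without WT_Tn replicate 2 (adjusted p 0.0240). It was also the 1 gene (0.0067% of those tested) that differed between KO_Tn and WT_Tn, and it lies on the same stretch of chromosome 11 as Nefh, Slc35e4 and Tcn2. Without KO_HDS63 replicate 2 its adjusted p by edgeR was 0.0838 and the test of the difference called 0 genes with edgeR (696 at an unadjusted p under 0.05). Without both KO_HDS63 replicate 2 and WT_IL6 replicate 2 its adjusted p was 0.0227, and it was the 1 gene called.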

How the data were processed

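RNA was measured in 10 culture libraries of mouse CD4 T cells (5 groups of 2), of which 4 carry the comparison. The authors deposited counts of reads per Ensembl gene, made with STAR 2.5.3, SAMtools 0.1.18 and HTSeq 0.7.2 on GRCm38/mm10, per the submitters' processing notes, which also list DESeq2 1.18.1 and R 3.4.3. The strand setting and the annotation release are not given in the sources used here. RNA was prepared with a Qiagen miRNeasy micro kit, per the labels' protocols. Of 39179 gene identifiers, 37693 were matched to a symbol. The 5 HTSeq summary lines were left out, and reads assigned to no feature amounted to 21.1% to 31.9% of reads in the 4 libraries. Depth over the culture libraries was 20160774 to 46848016 gene reads. A floor of 3 reads per library stands for a group with no read, and floors cover counting error only.

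The counts were tested in R 4.3.3 with edgeR 4.0.16 (filterByExpr, TMM scaling, quasi-likelihood fit of all 10 libraries so that the 5 groups share 1 estimate of the spread, limma 3.58.1 loaded), with Benjamini-Hochberg adjustment over all 14926 genes and a threshold of 0.05. SE is the log2 fold change divided by the square root of F. CPM are counts scaled to a common total of gene reads after TMM correction. Symbols and coordinates come from the GENCODE M21 annotation of GRCm38. The test was checked on simulated counts in which all groups shared 1 mean level per gene and changes were set in KO_HDS63 only. Of 100 genes changed 2-fold and 100 changed 4-fold, edgeR recovered 62% and 68% for KO_HDS63 vs KO_Tn. All 14926 genes were simulated, low ones included. For the difference between genotypes it recovered 40% and 58%. Unchanged genes called by edgeR numbered 13 for KO_HDS63 vs KO_Tn and 3 for the difference. Far fewer genes changed there than the 72% called in the data, so these shares do not give the power of the real tests.

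The members and gene lists were chosen with earlier results of these data known. Genes named in the text are 23 genes of the field, the 15 largest changes each way (mean log2 CPM of at least 2, no overlap, no predicted or receptor-segment genes), for each list the 3 largest rises and the 3 largest falls and any member with a group at 0, for the difference and the label check the largest by the same criteria, and the 5 genes of highest CPM that rose and that fell. That gave 202 genes, of which 201 passed, and some of them are not reported here. Nefh, Slc35e4, Tcn2, Stat3, Gbp2, Ighm, Tgfbr1, Slc7a5, the genes with a printed promoter other than Il17a and Il17f, and the promoter motifs were chosen after values were seen. Promoters were read from RefSeq start sites (GRCm38.p6), with 32851 windows in all. Alternatives were RLE scaling, other filters on low counts, a 2-fold minimum, DESeq2 1.42.0, only the compared groups, a replicate block and leaving out libraries, including a pair chosen after seeing the data.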

Additional observations from a re-analysis of the deposited data

How the results depend on the processing

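The comparison of KO_HDS63 with KO_Tn called 10740 genes, and no call reversed under any alternative run. The count stayed within 1.5 times of that under RLE scaling, both other filters, DESeq2, the compared groups only and each library left out (9548 to 9867 genes), and when KO_HDS63 replicate 2 and WT_IL6 replicate 2 were left out together, a choice made after seeing the data (9341). A test against a 2-fold minimum called 5660 genes, 2947 higher and 2713 lower, and 28 named genes then lost their call, among them Stat4, Zap70, Cd40lg, Ikzf3, Actb and mt-Co1. Of the 202 named genes, 7 lost their call without KO_HDS63 replicate 2 (C1qb, Ccr1, Cr2, Hba-a1, Hbb-bs, Mvk and Sdha). Thy1, not called at 0.21, ranged from -0.0065 without KO_HDS63 replicate 2 to 0.42 without KO_HDS63 replicate 1, where it was called, and was -0.030 without both doubted libraries. With no filter, and with the compared groups only, 1 gene of the Th17 programme was called lower. The test of the difference between the genotypes' responses called 0 genes, but 271 with no filter on low counts and 51 with DESeq2. Leaving out a library gave 0 to 392, with 1 without WT_Tn replicate 1 and 392 without WT_Tn replicate 2, where a lone library is assumed to vary like the other groups. Leaving out the doubted pair gave 1. Why these counts differ was not tested. Genes near the floor of 3 reads are limited by depth, which was lowest in KO_Tn replicate 1.

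The labels give no pairing by replicate number. The deviations of same-numbered libraries from their group means had a correlation of -0.0345 between KO_HDS63 and KO_Tn and of 0.0452 between WT_HDS63 and WT_Tn, and over all 10 pairs of groups it ranged from -0.283 (KO_HDS63 with WT_IL6) to 0.33 (KO_Tn with WT_Tn). With the replicate number as a block, 10579 genes were called, 5534 higher and 5045 lower, and 10531 of the 10740 calls remained. The difference between genotypes again had 0 calls, with 1127 genes at an unadjusted p under 0.05 by edgeR.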

Other observations

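Several gene families that no list of the report held moved in a body. They were collected by name after the values had been seen, so their counts are descriptions, to be read beside the 37.5% of all tested genes that were higher and the 34.4% that were lower. All 9 GIMAP genes, which encode GTPases of lymphocyte survival, fell, with a median log2 fold change of -3.09. Gimap6 read 64.9 and 62.97 CPM in KO_HDS63 and 1537 and 1141 CPM in KO_Tn (log2 fold change -4.39, SE 0.20, adjusted p 9.3e-09). Of 25 tested H2 genes of antigen presentation, 20 fell and none rose, and B2m, which encodes their light chain, read 264 and 291 CPM in KO_HDS63 and 1517 and 1394 CPM in KO_Tn (log2 fold change -2.39, SE 0.15, adjusted p 1.06e-07). H2 genes are closely related, so their reads may be split among them. Nlrc5, a transactivator of class I genes, read 42.1 and 31.1 CPM in KO_HDS63 and 689.6 and 686 CPM in KO_Tn (log2 fold change -4.23, SE 0.20, adjusted p 1.65e-08), and all 7 tested NOD-like receptor genes fell. Of 10 tested HIN-200 genes 8 fell, and of 8 tested OAS genes 8 fell. Of 335 tested genes named Zfp, 70 rose and 157 fell (69 and 126 without KO_HDS63 replicate 2).

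Families of protein production and turnover mostly rose. Of 38 tested proteasome genes, 35 rose and 3 fell, with a median log2 fold change of 1.30. Psmd1, a subunit of the regulatory particle, read 247 and 253 CPM in KO_HDS63 and 58.3 and 57.97 CPM in KO_Tn (log2 fold change 2.11, SE 0.08, adjusted p 4.47e-09), whereas Psmb10, a subunit of the immunoproteasome, fell to 35.9 and 39.9 CPM in KO_HDS63, against 143 and 131 CPM in KO_Tn (log2 fold change -1.85, SE 0.21, adjusted p 1.41e-05). All 8 chaperonin genes rose, and Cct2 read 672 and 718 CPM in KO_HDS63 and 284 and 274 CPM in KO_Tn (log2 fold change 1.32, SE 0.11, adjusted p 1.39e-06). Ribosomal proteins of the mitochondrion and of the cytosol went opposite ways. Of 78 tested mitochondrial ones 63 rose and 2 fell (56 and 2 without KO_HDS63 replicate 2), with a median of 0.97, and Mrpl12 read 135 and 150.4 CPM in KO_HDS63 and 34.3 and 34.4 CPM in KO_Tn (log2 fold change 2.05, SE 0.11, adjusted p 2.84e-08). Of 80 tested cytosolic ones 7 rose and 39 fell, with a median of -0.32, and Rps27 read 271 and 292 CPM in KO_HDS63 and 781 and 724 CPM in KO_Tn (log2 fold change -1.42, SE 0.12, adjusted p 1.24e-06). Cytosolic ribosomal protein genes have many processed copies that can take reads, and their counts moved with single libraries. Without KO_HDS63 replicate 2, 2 rose and 37 fell, and without KO_HDS63 replicate 1, 7 rose and 21 fell. Without KO_Tn replicate 1, 5 rose and 23 fell, and without KO_Tn replicate 2, 3 rose and 29 fell. Against a 2-fold minimum 2 rose and 1 fell. Of 55 tested initiation factor genes 41 rose and 7 fell (41 and 6 without KO_HDS63 replicate 2, 41 and 4 without replicate 1), of 28 kinesin genes 19 rose and 3 fell, and of 21 centromere protein genes 19 rose and 1 fell (18 and 1 without KO_HDS63 replicate 2). All these medians kept their sign under RLE scaling.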
